A study of Mus musculus with 1298 samples.

Results

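Integrin and laminin genes were followed through the cell types that descend from *Pax7*-expressing cells of the mouse embryo. The members are the genes whose symbol is Itga or Itgb followed by a number or letter, without the integrin binding proteins (3 symbols), or Lama, Lamb or Lamc followed by a number. They are 38 of the 26724 genes listed in the deposited single-cell and bulk tables. There are 18 integrin α genes, 8 integrin β genes, 5 laminin α genes, 3 laminin β genes and 3 laminin γ genes. The last member, *Itgbl1*, matches the spelling but encodes a secreted protein that resembles integrin β chains and is not a receptor subunit. Of these 35 are listed on 10x, 36 on Smart-seq2 and all 38 in bulk. *Itgax* and *Itgb2* were listed in the bulk table alone, and *Itgad* was absent from the 10x table.

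Integrins are cell surface receptors made of 1 α and 1 β chain that bind the matrix outside the cell and hold it to the actin skeleton through talin, kindlin and vinculin. Laminins are trimers of an α, a β and a γ chain that polymerise on the cell surface and seed basement membranes, the thin sheets around muscle fibres, fat cells and vessels and under epithelia. In skeletal muscle, laminin chains bind α7β1 integrin and dystroglycan, and the loss of the laminin α2 chain or of integrin α7 causes muscular dystrophy. Fibronectin, tenascin, osteopontin, thrombospondin and Vcam1 are ligands of other integrins.

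The embryos carried *Pax7CreER* and *R26R-stop-EYFP*, and 1 dose of tamoxifen (TMX) given to the pregnant mice at E9.5 switched on YFP in cells that expressed *Pax7* then, and in their descendants. YFP+ cells were sorted at 3 stages (E12.5, E14.5 and also E16.5) and profiled on 10x, which counts unique molecular identifiers (UMIs) near transcript ends, and with Smart-seq2, which reads whole transcripts. Head, limbs and viscera had been removed and several embryos were pooled for each sort. A pool, meaning 1 platform at 1 stage, is therefore the unit compared here. The p-values refer to the spread between the 4 to 6 pools of a comparison rather than between embryos. The main fits have 2 to 5 residual degrees of freedom. Their p-values therefore lean in good part on a spread shared among genes, not on the pools of each gene alone. Dispase was added to the digestion from E14.5 on, so stage, library and digestion cannot be told apart. Bulk libraries used here are 2 technical duplicates of Pdgfra-/Cd36+ cells sorted at E16.5 from embryos of the same genotype and TMX treatment. Since the label marks cells by Cre activity at 1 moment, cell types that entered the lineage at other times are not covered.

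Of 3916 deposited cells 3852 passed the mitochondrial limit, 2921 on 10x and 931 on Smart-seq2. Median depth was 2185, 5930 and 1607.5 UMIs per 10x cell from the earliest to the latest stage, and 393416, 769833 and 829590 expected counts per Smart-seq2 cell. Only 3 cell barcodes occurred in more than 1 10x library. Cells were clustered without the members and the 52 partner genes, and 15 of 16 clusters were named from marker genes as early progenitor-like (EP-like), late progenitor-like (LP-like), dermal fibroblast-like (DF-like), early muscle-like (EM-like), late muscle-like (LM-like), brown adipocyte-like (BA-like), neuron-like (N-like), neural progenitor-like (NP-like) or pericyte-like (PE-like), while 1 cluster of 21 cells led by *Col2a1* and *Acan* stayed unnamed. Own markers summed to 852.8 to 2869 CPM (counts per 1000000 counts of the class in that pool) in EM-like cells against 16.3 to 31.7 CPM in LP-like cells, and to 3469.6 to 17456 against 138.9 to 1635 CPM for the LP list. Ranges of related classes overlapped for the EM list (1078 to 3521 CPM in LM-like cells) and the LP list (2441 to 8302 CPM in DF-like cells). The LM list summed to 13206 to 29101 CPM in LM-like and 437.7 to 3111 CPM in EM-like cells. For the DF list the sums were 3494 to 6140 CPM in DF-like and 204.6 to 361.8 CPM in LP-like cells. The summed level of 7 endothelial markers (6 in the Smart-seq2 table) was 14.02 to 237.1 CPM in EM-like, 9.06 to 187.8 in LM-like, 35.2 to 129.1 in LP-like, 13.1 to 109.9 in DF-like and 7.22 to 322.6 in N-like cells, with 1 to 6 of the markers detected. The leukocyte list reached at most 9.79 CPM in these 5 classes. The keratinocyte list summed to 3.37 to 78.8 CPM in EM-like cells and to at most 10.8 CPM in the others of the 5. Its part in the EM-like levels was not tested. A list of 6 Schwann cell markers (4 in the Smart-seq2 table) summed to 10.8 to 265.1 CPM in EM-like and 0 to 319.7 CPM in LM-like cells, against 11.7 to 17.02 in EP-like and 2.71 to 9.82 in LP-like cells, with 0 to 4 of its genes detected. *Erbb3* made up most of it in EM-like cells (10.8 to 258.6 CPM), while *Sox10* reached at most 2.14 CPM there. The part of this list in the muscle comparisons was not tested.

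*Itgb1*, the β chain that pairs with most of the α chains listed here, was the most abundant member per length in all 9 classes by the mean over pools. In Smart-seq2, which allows a comparison of genes per kilobase of exon, *Itgb1* stood at a mean of 162.9 CPM per kb in LP-like cells (2 pools), 167.7 in DF-like (2 pools), 118.1 in EM-like (3 pools), 86.9 in LM-like (3 pools) and 19.3 in N-like cells (2 pools). In the LP-like pool of E16.5 *Itga5* stood above *Itgb1*, at 214.9 against 193.8 CPM per kb. The second most abundant member per kb by the mean differed between the classes. It was *Itga5*, the α chain of the fibronectin receptor, in LP-like (135.3) and DF-like cells (64.2), *Lamb1* in EM-like cells (33.4), *Itga7* in LM-like cells (12.7) and *Itga3* in N-like cells (2.03). The ranges over pools overlapped for *Lamb1* and *Itga7* in EM-like cells (20.4 to 42.7 and 0.372 to 46.9 CPM per kb), so their order is not set by these data. The same holds for *Itga5* and *Lamb1* in LP-like cells, where *Lamb1* was the higher at E14.5 (83.9 against 55.7 CPM per kb). It also holds for *Itga7* and *Lama5* in LM-like cells. In N-like cells *Itga3* (1.08 to 2.98) and *Itga6* (0.712 to 2.86 CPM per kb) overlapped as well.

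Many other members were at the edge of detection. The leukocyte integrin chains *Itgad*, *Itgae*, *Itgal*, *Itgam* and *Itgb7* reached at most 1.56, 1.85, 1.51, 3.32 and 0.905 CPM in any Smart-seq2 sum of at least 20 cells (13 sums). *Itga2* and *Itga10*, collagen receptor chains, ranged over 0 to 1.84 and 0 to 2.21 CPM, and *Itga2b*, the platelet chain, over 0.0557 to 4.71 CPM. *Itgb4*, *Lamb3* and *Lama3*, known from epithelia, were as low. *Itgb4*, the hemidesmosome chain, ranged over 0.0950 to 8.70 CPM and *Lamb3* over 0.104 to 5.00 CPM, while *Lama3* was counted in only 1 of the 13 Smart-seq2 sums (N-like at E14.5, 1.62 CPM) and in none of 17 10x sums. *Itga3*, a laminin receptor chain, was highest in N-like cells at 17.04 CPM at E12.5.

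**Figure D1:**
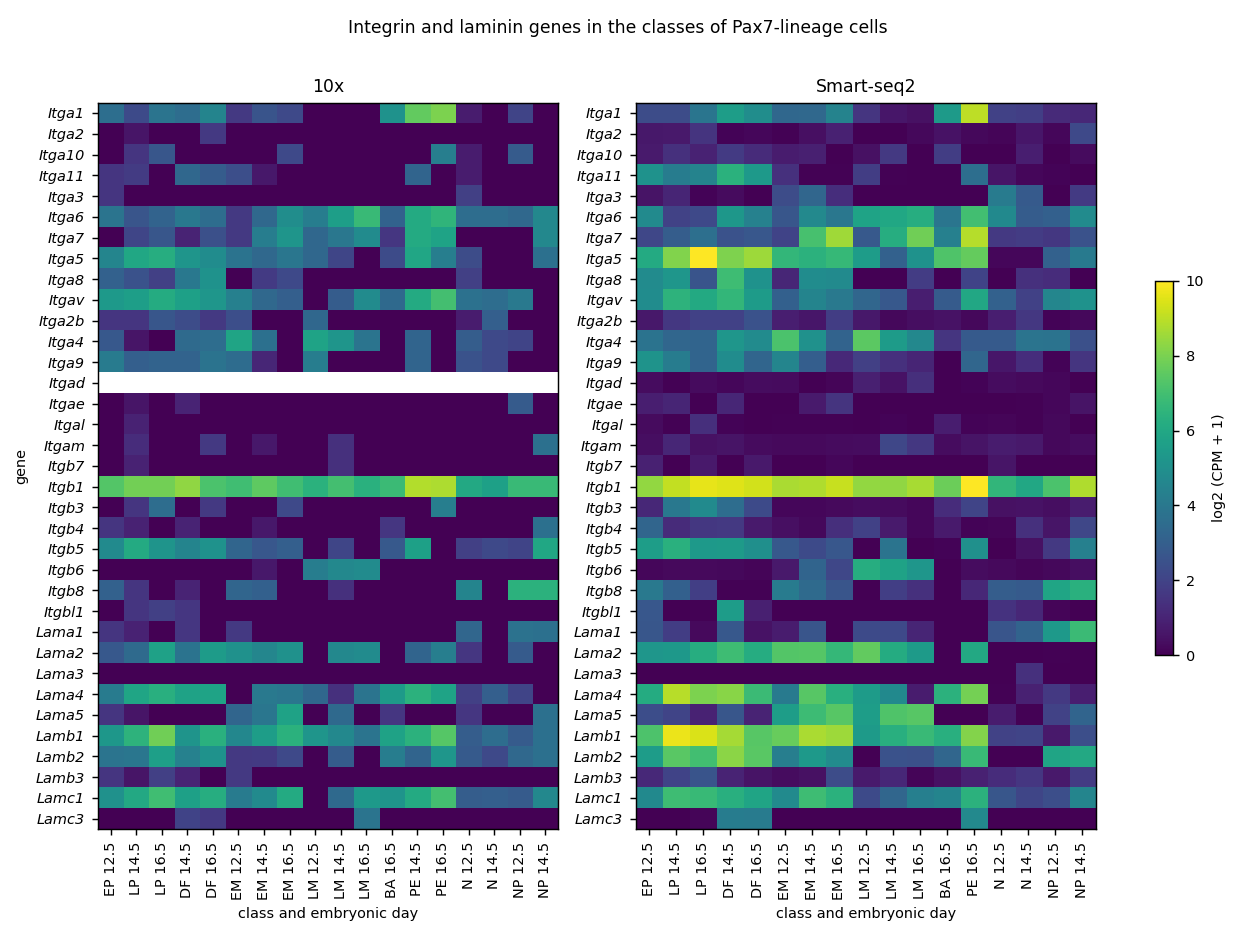
Level of the members on 10x (left) and Smart-seq2 (right) as log2 (CPM + 1), with 1 column per class and embryonic day and 1 row per gene shown, including sums of 13 to 15 cells for the LM-like, BA-like, PE-like and NP-like columns. *Itgb1* is high in every column and *Itgb8* in the NP-like columns. On Smart-seq2 *Lama5* is high in the muscle columns and *Itga5* in the LP-like and DF-like columns. On 10x *Lama5* is at 0 in the LM-like columns of E12.5 and E16.5. The *Itgad* row is blank on 10x because that table does not list it.

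EM-like cells, which express *Myf5*, *Pax7* and *Myod1*, were set against mesenchymal progenitors of the same pool, EP-like cells at E12.5 and LP-like cells at E14.5 and E16.5. Of 33 members tested 13 passed (adjusted p under 0.05), 5 higher and 8 lower in EM-like cells, where 24.3% of all 13976 genes tested passed in either direction (10.1% higher and 14.2% lower). The median log2 fold change of the members was -1.21, against -0.14 for all genes tested. The 5 that rose are the laminin chains *Lama5* and *Lama2*, the laminin receptor chain *Itga7*, and *Itga4* and *Itgb6*. The 8 that fell hold the αv group that binds vitronectin and fibronectin (*Itgav*, *Itgb3*, *Itgb5*), *Itga5*, *Itga9*, the collagen receptor chain *Itga11*, and the laminin chains *Lama4* and *Lamb2*.

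*Lama5* (chr2:180176373-180225859, minus strand, GRCm38), a laminin α chain of many basement membranes, showed the largest rise. In EM-like cells it stood at 8.55, 14.02 and 53.8 CPM on 10x and 45.8, 116.4 and 169.2 CPM on Smart-seq2 from E12.5 to E16.5, against 1.89, 0.472 and 0 CPM and 4.09, 3.18 and 0.9196 CPM in the progenitors. It was higher in EM-like cells in all 6 pools, with a log2 fold change of 5.27 ± 0.62 (SE, adjusted p = 4.15e-04). At E16.5 it was counted in 51 of 59 EM-like Smart-seq2 cells, and the cell with the most counts gave 7.50% of the sum. *Itga7* (chr10:128933818-128958282, plus strand), the muscle laminin receptor chain, was higher in 5 of 6 pools and rose by 3.18 ± 0.74 (SE, adjusted p = 0.0117). The pool that differed was Smart-seq2 at E12.5, with 3.01 CPM in EM-like and 3.38 CPM in EP-like cells. On 10x at E12.5 the order rests on a single UMI in EM-like cells against 0 in EP-like cells. *Itga4* (chr2:79255426-79333123, plus strand), which pairs with β1 to bind Vcam1 and fibronectin, stood at 141.3 against 12.96 CPM at E12.5 on Smart-seq2 and at 55.6 against 5.67 CPM on 10x, and rose by 2.36 ± 0.62 (SE, adjusted p = 0.0222). At E16.5 the 2 classes no longer stood apart for it, with 8.10 against 8.29 CPM on Smart-seq2 and 0 counts in both on 10x. Exons of *Itga4* and *Itga7* overlap *Cerkl* and *Mettl7b* on the other strand, and *Cerkl* itself stood at 0.615 to 2.05 CPM in the EM-like Smart-seq2 sums. The annotation also overlaps *Itga8*, *Lama2* and *Lamc3* with antisense genes, whose reads cannot be told apart where strand was not used. *Itga1* overlaps *Gm49395* on the same strand, so strand cannot separate the reads they share.

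*Lama2*, the α chain of the laminin of mature muscle, was higher in 5 of 6 pools and rose by 1.32 ± 0.38 (SE, adjusted p = 0.0281). In Smart-seq2 it stood at 160.1, 162.6 and 100.2 CPM in EM-like cells against 36.7, 38.8 and 73.3 CPM. On 10x at E16.5 the order was the other way (32.3 against 51.5 CPM). *Itgb6* rose by 3.94 ± 1.17 (SE, adjusted p = 0.0397). Its EM-like levels on Smart-seq2 were 0.586, 8.26 and 3.42 CPM, which rest on 4, 6 and 5 cells with a count. The progenitors stood at 0.138, 0.208 and 0.187 CPM there.

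*Itgb5* fell in all 6 pools, from 26.5, 68.02 and 35.2 CPM in the progenitors to 8.55, 5.61 and 7.17 CPM in EM-like cells on 10x and from 46.8, 79.9 and 40.5 to 5.72, 3.71 and 5.62 CPM on Smart-seq2, with no overlap (log2 fold change -3.18 ± 0.36 SE, adjusted p = 3.06e-04). Its α partner *Itgav*, at 7.30, 21.9 and 15.6 CPM in EM-like cells on Smart-seq2, was lower in all 6 pools as well, with a log2 fold change of -2.02 ± 0.25 (SE, adjusted p = 5.24e-04). *Itgb3*, the other β partner of αv here, changed by -5.35 ± 1.11 (SE, adjusted p = 0.00835), with EM-like Smart-seq2 levels of at most 0.199 CPM against up to 26.6 CPM in LP-like cells. *Lama4*, a laminin α chain known from muscle, fat and vessels, fell by 1.93 ± 0.24 (SE, adjusted p = 5.14e-04) and was lower in all 6 pools, while *Lamb2* changed by -2.09 ± 0.28 (SE, adjusted p = 7.50e-04) with the same order in all 6, on Smart-seq2 at 18.4, 41.5 and 27.6 against 44.7, 174.96 and 125.2 CPM. Log2 changes of *Itga11*, *Itga5* and *Itga9* were -5.48 ± 1.62 (SE, adjusted p = 0.0350), -1.74 ± 0.49 (SE, adjusted p = 0.0277) and -1.63 ± 0.51 (SE, adjusted p = 0.0390). The partner chains *Itgb1*, *Lamc1* and *Lamb1* did not pass, at -0.29 ± 0.17 (SE, adjusted p = 0.247), -0.47 ± 0.21 (SE, adjusted p = 0.136) and -0.71 ± 0.24 (SE, adjusted p = 0.0538).

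Partner genes moved in both directions in the same fit. Of the genes that work beside these receptors, 1 rose and 5 fell of 15 tested adhesion adaptors, 2 rose and 6 fell of 12 tested basement membrane partners, 3 rose and 1 fell of 11 tested dystrophin complex and non-integrin laminin receptors, and 0 rose and 7 fell of 12 tested other integrin ligands. The sarcoglycan *Sgca* and the laminin receptor *Bcam* rose by 6.38 ± 0.80 (SE, adjusted p = 5.40e-04) and 5.00 ± 0.43 (SE, adjusted p = 8.76e-05), and *Ntn4*, a netrin that binds laminin, by 3.01 ± 0.95 (SE, adjusted p = 0.0412). *Spp1*, *Icam1* and *Thbs1*, ligands of αv, β2 and other integrins, changed by -8.39, -4.75 and -3.73 (adjusted p = 0.0411, 0.00171 and 0.0109).

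The calls of *Lama5*, *Itgb3*, *Itgb5*, *Lamb2*, *Itgav* and *Lama4* held in each of the 6 fits that left out 1 pool. *Itga4*, *Lama2* and *Itga9* did not pass without the 10x sum of E12.5 (adjusted p 0.0502 to 0.0670). *Itgb6*, *Itga4*, *Lama2*, *Itga11*, *Itga5* and *Itga9* did not pass without the 10x sum of E14.5 (adjusted p 0.0655 to 0.120). *Itgb6*, *Itga11*, *Itga5* and *Itga9* did not pass without the 10x sum of E16.5 (adjusted p 0.0501 to 0.0792). *Itga7*, *Itga4*, *Lama2*, *Itga11*, *Itga5* and *Itga9* did not pass without the Smart-seq2 sum of E14.5 (adjusted p 0.0523 to 0.119), where *Itgb6* was removed by the filter on low counts. *Itga11*, *Itga5* and *Itga9* did not pass without the Smart-seq2 sum of E16.5 (adjusted p 0.0960 to 0.127), where *Itgb6* was removed by the filter on low counts. *Itgb6* was removed by the filter on low counts without the Smart-seq2 sum of E12.5. *Spp1* did not pass without the 10x sum of E12.5 (adjusted p = 0.0623). *Ntn4*, *Spp1* and *Thbs1* did not pass without the 10x sum of E14.5 (adjusted p 0.0573 to 0.114). *Ntn4* and *Spp1* did not pass without the 10x sum of E16.5 (adjusted p 0.0612 to 0.0932). *Ntn4* and *Thbs1* did not pass without the Smart-seq2 sum of E14.5 (adjusted p 0.0509 to 0.0631). *Ntn4* did not pass without the Smart-seq2 sum of E16.5 (adjusted p = 0.0738), where *Spp1* was removed by the filter on low counts. *Itgb6* and *Spp1* did not pass with DESeq2 (adjusted p 0.111 to 0.678). *Itga7*, *Itga4*, *Ntn4*, *Itga11*, *Itga5*, *Itga9*, *Spp1* and *Thbs1* did not pass at a cluster resolution of 1.2 (adjusted p 0.0508 to 0.116). *Lama2* did not pass on the 10x pools alone (adjusted p = 0.169), where *Lama5*, *Itgb6*, *Itga7*, *Itga4*, *Sgca*, *Ntn4*, *Itga11*, *Itgb3*, *Lamb2*, *Itga9*, *Spp1* and *Icam1* were removed by the filter on low counts. *Itga11* and *Itga9* did not pass with Smart-seq2 sums split by sequencing batch (adjusted p 0.0752 to 0.138). *Itga4* and *Lama2* did not pass with the doublets that Scrublet called removed (adjusted p 0.0589 to 0.151). *Ntn4* did not pass with no mitochondrial limit (adjusted p = 0.0628). *Spp1* did not pass with members and partners among the variable genes (adjusted p = 0.0537).

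The effect of class differed between E12.5 and E16.5 for 10 members, in a test of the interaction in which 12.2% of 13976 genes passed. EM-like cells gained on the progenitors in *Itga7* (4.77 ± 0.64 SE, adjusted p = 1.25e-11 on the log2 scale), *Itga8* (6.68 ± 1.08 SE, adjusted p = 5.34e-08), *Itga6* (4.19 ± 1.03 SE, adjusted p = 0.00104), *Lama5* (3.94 ± 0.70 SE, adjusted p = 1.09e-06) and *Itgae* (16.02 ± 5.10 SE, adjusted p = 0.0189), whose fitted size rests on near-zero counts. They lost on them in *Itga4* (-3.64 ± 0.78 SE, adjusted p = 9.72e-05), *Itga5* (-3.67 ± 0.47 SE, adjusted p = 1.25e-12), *Itga11* (-5.53 ± 1.56 SE, adjusted p = 0.00582), *Lama2* (-2.19 ± 0.51 SE, adjusted p = 4.91e-04) and *Lamb1* (-1.47 ± 0.40 SE, adjusted p = 0.00355). The reference is EP-like at the first stage and LP-like at the last, so this difference mixes change in both lineages. With 1 pool per platform and stage this fit has 3 residual degrees of freedom, so its p-values lean on a spread shared among genes.

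The 250 bases before the transcription start of the 3 members of this group that RefSeq lists near their annotated 5′ end are shown because they rose in EM-like cells, whose *Myf5* and *Myod1* products bind E-boxes. Capitals mark the E-box letters CAGCTG, or CACCTG and its complement CAGGTG. Both strands were searched, and of 32851 promoters of this length in the RefSeq table for GRCm38.p6 13.0% hold CAGCTG and 17.2% hold CACCTG or CAGGTG. Of the 38 members 24 are in that table. The sequences run 5′ to 3′ on the strand of the gene, at chr2:180225860-180226109 (minus) for *Lama5*, chr2:60722604-60722853 (minus) for *Itgb6* and chr2:79255176-79255425 (plus) for *Itga4*.
*Lama5*: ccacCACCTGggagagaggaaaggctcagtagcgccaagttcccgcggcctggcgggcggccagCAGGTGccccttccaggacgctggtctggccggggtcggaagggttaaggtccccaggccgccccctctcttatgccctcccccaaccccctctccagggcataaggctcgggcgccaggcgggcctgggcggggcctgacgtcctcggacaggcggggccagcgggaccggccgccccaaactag
*Itgb6*: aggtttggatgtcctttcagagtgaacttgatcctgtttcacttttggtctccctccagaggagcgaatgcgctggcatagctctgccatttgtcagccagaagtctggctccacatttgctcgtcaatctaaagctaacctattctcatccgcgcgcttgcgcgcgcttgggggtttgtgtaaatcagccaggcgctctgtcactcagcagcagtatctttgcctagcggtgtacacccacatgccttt
*Itga4*: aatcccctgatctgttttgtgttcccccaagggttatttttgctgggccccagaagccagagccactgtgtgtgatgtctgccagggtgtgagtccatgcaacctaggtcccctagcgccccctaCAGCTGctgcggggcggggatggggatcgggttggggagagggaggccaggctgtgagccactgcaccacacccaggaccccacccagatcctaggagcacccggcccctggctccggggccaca
The *Lama5* window holds 2 copies of the CACCTG form, the *Itga4* window 1 copy of CAGCTG, and the *Itgb6* window neither. The presence of these letters describes the sequence and shows no binding.

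Within the EM-like class, E16.5 was set against E12.5. Of 25 members tested 10 passed, 8 higher and 2 lower at E16.5, beside 10.2% of 12520 genes (5.38% higher and 4.82% lower), and the median log2 change of the members was 0.59 against 0.00. Among those that rose were a laminin receptor pair of α chains (*Itga7*, *Itga6*), *Itga8* and the laminin chains *Lama4*, *Lama5*, *Lamb1* and *Lamc1*. Those that fell were *Itga4* and *Itga9*, α chains that bind Vcam1, tenascin and osteopontin.

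*Itga7* rose on both platforms, through 2.14, 17.9 and 35.8 CPM on 10x and 3.01, 134.5 and 379.4 CPM on Smart-seq2 at the 3 stages, with 18 of 50, 40 of 55 and 57 of 59 Smart-seq2 cells holding a count. Its log2 change was 7.00 ± 0.65 (SE, adjusted p = 1.48e-23), the largest of the 10. *Itga4* went the other way, through 55.6, 11.8 and 0 CPM on 10x and 141.3, 32.5 and 8.10 CPM on Smart-seq2 (-3.93 ± 0.57 SE, adjusted p = 1.23e-09). Per kb on Smart-seq2, *Itga4* stood above *Itga7* at E12.5 (10.1 against 0.372 CPM per kb) and below it at E16.5 (0.579 against 46.9 CPM per kb). *Itga9* stood at 22.3, 6.87 and 1.21 CPM on Smart-seq2 and 10.7, 1.12 and 0 CPM on 10x (-4.15 ± 1.15 SE, adjusted p = 0.00557).

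Among the laminin chains, *Lama5* rose by 2.44 ± 0.50 (SE, adjusted p = 4.87e-05) and *Lama4* by 2.76 ± 0.56 (SE, adjusted p = 4.40e-05). *Lama4* was at 0, 15.7 and 14.3 CPM on 10x and 16.2, 169.3 and 78.8 CPM on Smart-seq2, so it peaked at E14.5 in both, whereas *Lama5* was highest at E16.5 in both. *Lamc1*, the γ chain of most laminins, rose by 2.15 ± 0.49 (SE, adjusted p = 4.18e-04) and *Lamb1* by 1.51 ± 0.43 (SE, adjusted p = 0.00741), the latter from 23.5 to 82.4 CPM on 10x and from 202.5 to 366.97 CPM on Smart-seq2. *Itga8* rose by 4.89 ± 0.98 (SE, adjusted p = 3.24e-05) and *Itga6* by 2.40 ± 0.75 (SE, adjusted p = 0.0195). *Itgb1*, *Itgav* and *Lama2* did not pass (0.59 ± 0.38 SE, adjusted p = 0.378, 0.58 ± 0.73 SE, adjusted p = 0.722 and -0.17 ± 0.46 SE, adjusted p = 0.890).

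Of the partners, 4 rose and 1 fell of 10 tested dystrophin complex and non-integrin laminin receptors, with *Bcam* at 3.48 ± 0.53 (SE, adjusted p = 5.76e-09) and *Sgcb* at 2.70 ± 0.48 (SE, adjusted p = 1.26e-06), and *Sgcd* at -5.45 ± 1.84 (SE, adjusted p = 0.0344). *Vcam1*, the ligand of α4β1, rose by 3.64 ± 0.55 (SE, adjusted p = 4.51e-09) as *Itga4* fell, and *Smoc1* changed by -4.28 ± 1.27 (SE, adjusted p = 0.0118). All Smart-seq2 cells of E16.5 belong to 1 sequencing batch and those of E12.5 and E14.5 to other batches, so batch and stage cannot be told apart there, and the fit has 2 residual degrees of freedom with a spread taken as common to all genes. *Itga6* and *Lamb1* did not pass without the 10x sum of E12.5 (adjusted p 0.133 to 0.234). *Itga6* did not pass without the 10x sum of E16.5 (adjusted p = 0.133). *Itga8*, *Lama4*, *Lama5*, *Itga6*, *Lamc1*, *Lamb1* and *Itga9* did not pass without the Smart-seq2 sum of E12.5 (adjusted p 0.322 to 0.947). *Itga6* did not pass without the Smart-seq2 sum of E14.5 (adjusted p = 0.0635). *Itga8*, *Lama4*, *Itga6*, *Lamb1* and *Itga9* did not pass without the Smart-seq2 sum of E16.5 (adjusted p 0.0830 to 0.744). *Vcam1*, *Bcam*, *Sgcb* and *Smoc1* did not pass without the Smart-seq2 sum of E12.5 (adjusted p 0.0806 to 0.655), where *Sgcd* was removed by the filter on low counts. *Vcam1*, *Sgcb*, *Sgcd* and *Smoc1* did not pass without the Smart-seq2 sum of E16.5 (adjusted p 0.429 to 0.860). *Itga6*, *Sgcd* and *Smoc1* did not pass with DESeq2 (adjusted p 0.0604 to 0.110). *Itga6* did not pass at a cluster resolution of 1.2 (adjusted p = 0.230). *Itga8*, *Itga6*, *Lamc1*, *Lamb1*, *Itga9*, *Sgcd* and *Smoc1* did not pass with Smart-seq2 sums split by sequencing batch (adjusted p 0.0637 to 0.280). The calls of *Itga7* and *Itga4* held in each of the 6 fits without 1 pool.

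**Figure D2:**
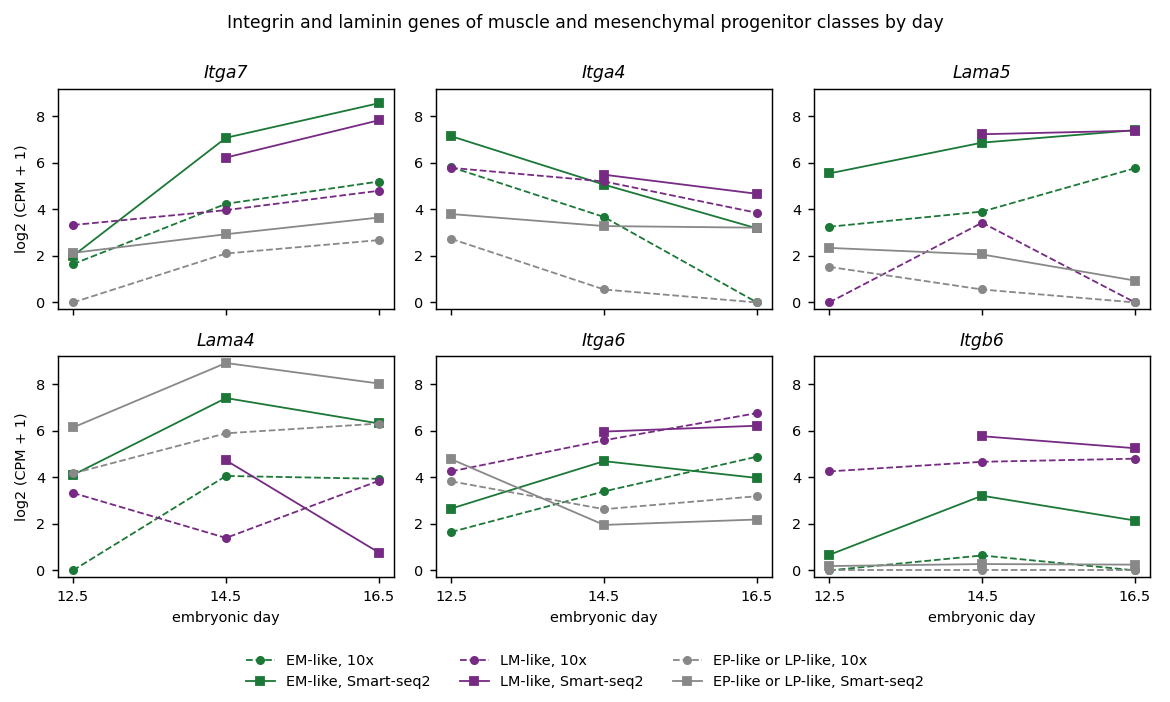
Level of 6 members, as log2 (CPM + 1), by embryonic day in EM-like (green), LM-like (purple) and EP-like or LP-like cells (grey) on 10x (circles, dashed) and Smart-seq2 (squares, solid), 1 sum of at least 20 cells per point, without an error bar because each point is 1 pool. *Itga7* climbs and *Itga4* declines with stage in EM-like cells on both platforms, and *Itgb6* is higher in LM-like than in the other cells of the same platform at each stage plotted.

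LM-like cells, the *Myog*-expressing cells that begin to fuse into fibres, were compared with EM-like cells in the 5 pools that held at least 20 of each. Of 18 members tested 9 passed, 3 higher and 6 lower in LM-like cells, where 23.7% of 10145 genes passed (11.2% higher and 12.6% lower), and the median log2 fold change was -1.60 for the members and 0.05 for all genes. *Itgb6*, *Itga6* and *Itga4* rose. Laminin chains *Lama4*, *Lamc1* and *Lamb1* and the α chains *Itga8*, *Itga1* and *Itga5* fell.

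*Itgb6* (chr2:60598292-60722643, minus strand), a β chain that pairs with αv to bind fibronectin and latent TGFβ and is best known from epithelia, was at 18.1, 24.5 and 26.95 CPM in LM-like cells on 10x (2, 15 and 2 UMIs), against 0, 0.561 and 0 CPM in EM-like cells. On Smart-seq2 it was at 53.6 against 8.26 CPM at E14.5 and 37.2 against 3.42 CPM at E16.5, in 13 of 32 and 13 of 27 LM-like cells. The 5 LM-like levels all exceeded the 5 EM-like levels, and the log2 fold change was 3.85 ± 0.55 (SE, adjusted p = 7.31e-06). Outside the muscle classes *Itgb6* had no UMI in any of the named 10x sums. The LM-like 10x sums of E12.5 and E16.5 are shallow, where 1 UMI is worth 9.06 and 13.5 CPM, so a single molecule sets a low gene there. In the 14 LM-like Smart-seq2 cells of E12.5, too few for the test, it stood at 74.3 CPM. The keratinocyte list summed to 0 to 9.06 CPM over the LM-like pools, with at most 2 of its 6 genes (5 in the Smart-seq2 table) detected in a pool. Its usual partner *Itgav* stood at 0, 6.53 and 26.95 CPM on 10x and 5.72 and 0.781 CPM on Smart-seq2 in these cells and did not pass (-1.78 ± 0.79 SE, adjusted p = 0.108).

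*Itga6*, a laminin receptor α chain, was higher in LM-like cells in all 5 pools, at 18.1, 47.3 and 107.8 against 2.14, 9.53 and 28.7 CPM on 10x and 61.7 and 73.6 against 24.96 and 14.7 CPM on Smart-seq2 (2.16 ± 0.33 SE, adjusted p = 2.10e-05). *Itga4* was higher in 4 of 5 pools (1.25 ± 0.39 SE, adjusted p = 0.0217), the exception being 10x at E12.5 with 54.4 against 55.6 CPM. *Itga7* did not pass (-0.40 ± 0.26 SE, adjusted p = 0.299), nor did *Itgb1* (-0.31 ± 0.19 SE, adjusted p = 0.263), *Lama2* (-0.75 ± 0.32 SE, adjusted p = 0.0930) or *Lama5* (0.09 ± 0.34 SE, adjusted p = 0.883). The *Lama5* level of LM-like cells on Smart-seq2, 149.7 and 166.7 CPM at E14.5 and E16.5, stood beside 116.4 and 169.2 CPM in EM-like cells, whereas on 10x it was 0, 9.79 and 0 against 8.55, 14.02 and 53.8 CPM.

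*Lamc1* fell in all 5 pools, on Smart-seq2 from 117.1 to 8.83 CPM at E14.5 and from 83.7 to 18.8 CPM at E16.5 (-2.26 ± 0.40 SE, adjusted p = 1.16e-04). *Lamb1* was lower in 4 of 5 pools, with 78.3 against 423.8 CPM at E14.5 on Smart-seq2 (-1.495 ± 0.28 SE, adjusted p = 2.84e-04), and *Lama4* in 4 of 5 (-3.76 ± 0.74 SE, adjusted p = 4.34e-04), in each case except 10x at E12.5, where *Lama4* had 1 UMI in LM-like and none in EM-like cells. *Itga1* had no UMI in LM-like cells on 10x and 0.506 and 0.366 CPM on Smart-seq2, against 9.39 and 21.4 CPM in EM-like cells (-4.76 ± 1.15 SE, adjusted p = 0.00308). *Itga8* and *Itga5* changed by -5.87 ± 1.502 (SE, adjusted p = 0.00522) and -2.10 ± 0.47 (SE, adjusted p = 0.00145).

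All 8 other integrin ligands tested fell with the laminin chains, among them *Postn*, *Vcam1* and *Tnc* (-8.86 ± 0.89 SE, adjusted p = 3.60e-08, -5.69 ± 0.49 SE, adjusted p = 3.46e-09 and -4.64 ± 0.64 SE, adjusted p = 4.86e-06). Of the other lists, 1 rose and 5 fell of 8 tested basement membrane partners, 4 rose and 2 fell of 9 tested dystrophin complex and non-integrin laminin receptors, and 3 rose and 1 fell of 12 tested adhesion adaptors. *Npnt*, a ligand of α8β1, and *Dtna* rose by 2.01 ± 0.41 (SE, adjusted p = 5.44e-04) and 1.89 ± 0.52 (SE, adjusted p = 0.00849). *Itgb6*, *Itga6*, *Lamc1* and *Lamb1* passed in each of the 5 fits that left out 1 pool. *Itga4* did not pass without the 10x sum of E14.5 (adjusted p = 0.166). *Itga4* did not pass without the 10x sum of E16.5 (adjusted p = 0.0655). *Itga4* did not pass without the Smart-seq2 sum of E16.5 (adjusted p = 0.137), where *Itga8*, *Itga1* and *Itga5* were removed by the filter on low counts. *Itga8*, *Itga1* and *Lama4* were removed by the filter on low counts without the Smart-seq2 sum of E14.5. *Dtna* did not pass without the Smart-seq2 sum of E14.5 (adjusted p = 0.0623). *Dtna* was removed by the filter on low counts without the Smart-seq2 sum of E16.5. *Dtna*, *Itga8* and *Lama4* did not pass with DESeq2 (adjusted p 0.0530 to 0.317). *Itga4* did not pass at a cluster resolution of 1.2 (adjusted p = 0.0714). *Itga4*, *Dtna* and *Lama4* did not pass with sums of at least 10 cells (adjusted p 0.0549 to 0.628). *Itga4*, *Lamc1* and *Lamb1* did not pass on the 10x pools alone (adjusted p 0.0714 to 0.245), where *Itgb6*, *Dtna*, *Itga8*, *Itga1*, *Lama4*, *Itga5* and *Vcam1* were removed by the filter on low counts. *Dtna* did not pass with Smart-seq2 sums split by sequencing batch (adjusted p = 0.0623), where *Itga8*, *Itga1* and *Lama4* were removed by the filter on low counts.

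**Figure D3:**
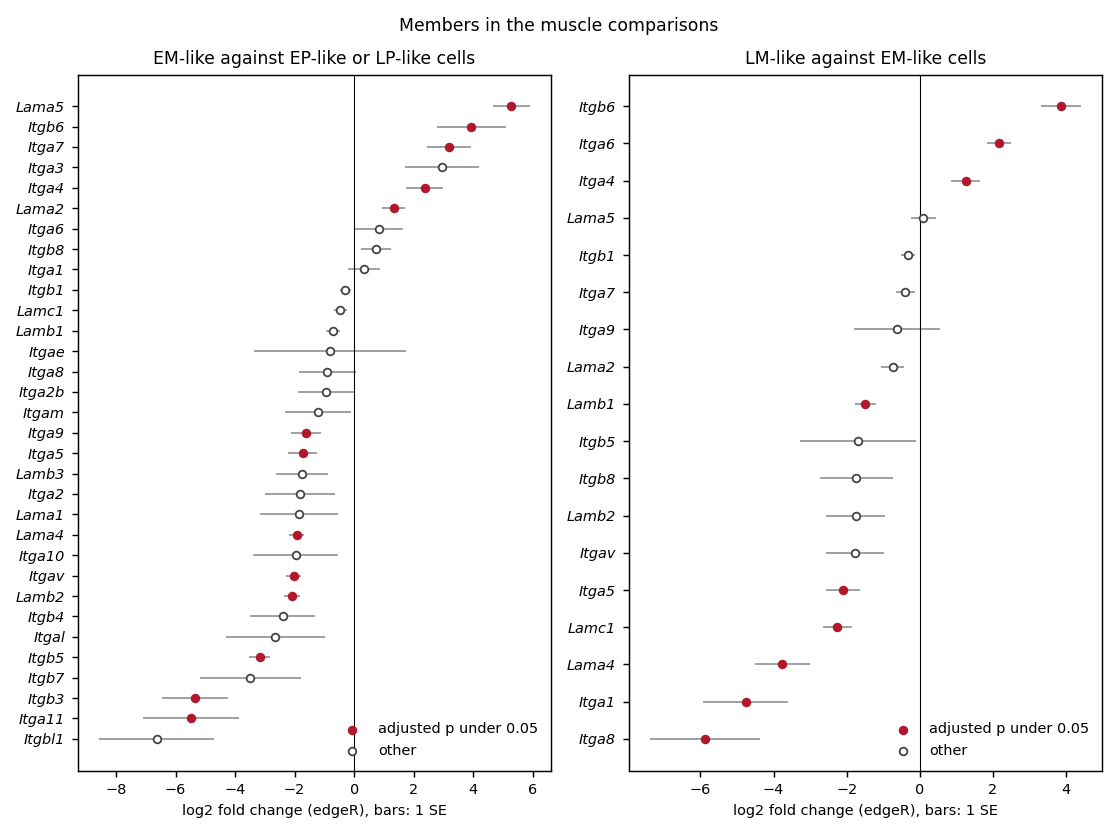
Log2 fold change of members tested, with its standard error as a bar, for EM-like cells against EP-like or LP-like cells of the same pools (left, 32 of the 33 members tested) and LM-like against EM-like cells (right, 18 members), filled where the edgeR adjusted p was under 0.05. *Lama5* leads the left panel and *Itgb6* the right, and *Lama4* and *Itga5* are lower in both.

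DF-like cells, the *Twist2* and *Crabp1* population of the dorsal dermis, were compared with LP-like cells of the same 4 pools. Of 32 members tested 9 passed, 6 higher and 3 lower in DF-like cells, where 11.5% of 14176 genes passed (5.16% higher and 6.31% lower), and the median log2 fold change was -0.31 for the members and -0.04 for all genes. The 6 that rose are 5 α chains (*Itga1*, *Itga4*, *Itga6*, *Itga8* and *Itga11*) and *Lamc3*. *Lamb1*, *Lama4* and *Lamc1*, which can form 1 trimer together, were the 3 that fell.

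*Lamc3* (chr2:31887291-31946539, plus strand), a γ chain best known from skin, brain and retina, was counted in few other sums, a single UMI in LM-like cells on 10x at E16.5 and 25.3 CPM in the 15 PE-like Smart-seq2 cells among them. It stood at 3.01 and 2.19 CPM in DF-like cells on 10x, from 3 and 1 UMIs, and at 17.4 and 16.9 CPM on Smart-seq2, against 0, 0, 0 and 0.0849 CPM in LP-like cells. The fitted log2 fold change was 8.78 ± 1.16 (SE, adjusted p = 9.56e-04), a size that depends on the near-zero LP-like counts. On Smart-seq2 6 of 49 and 6 of 74 DF-like cells held a count, against 0 of 50 and 1 of 87 LP-like cells, and 1 cell gave 41.2% and 40.9% of the DF-like sums.

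*Itga8* (chr2:12106632-12301922, minus strand), whose product pairs with β1 and binds nephronectin and fibronectin, stood at 15.1, 32.8, 118.6 and 33.4 CPM in DF-like cells against 4.72, 2.71, 37.1 and 5.09 CPM in LP-like cells, taking 10x E14.5, 10x E16.5, Smart-seq2 E14.5 and Smart-seq2 E16.5 in this order. The DF-like level was the higher in each pool, though the E14.5 LP-like level on Smart-seq2 exceeded the DF-like level of E16.5 there (2.19 ± 0.31 SE, adjusted p = 0.00163). In the same order *Itga4* stood at 10.04 against 0.472, 10.9 against 0, 37.2 against 8.75 and 27.2 against 8.29 CPM (2.34 ± 0.49 SE, adjusted p = 0.0127) and *Itga11*, which binds fibrillar collagen, at 9.04 against 2.36, 6.56 against 0, 81.9 against 17.3 and 40.7 against 21.2 CPM (1.71 ± 0.38 SE, adjusted p = 0.0177). Both were higher in DF-like cells in all 4 pools, as were *Itga6* (2.44 ± 0.55 SE, adjusted p = 0.0180) and *Itga1*, a receptor chain for collagen IV and laminin (1.88 ± 0.51 SE, adjusted p = 0.0412).

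*Lamb1* fell in all 4 pools, in the same order from 88.3, 224.9, 832.2 and 694.3 CPM in LP-like to 35.1, 80.9, 403.9 and 166.4 CPM in DF-like cells (-1.49 ± 0.19 SE, adjusted p = 6.59e-04). The changes of *Lama4* and *Lamc1* were smaller, -0.72 ± 0.18 (SE, adjusted p = 0.0316) and -0.67 ± 0.16 (SE, adjusted p = 0.0252), with the LP-like level higher in all 4 pools. *Lamb2*, by contrast, did not pass (0.46 ± 0.21 SE, adjusted p = 0.215), and neither did *Lama2* (0.54 ± 0.32 SE, adjusted p = 0.344), *Itga7* (-0.84 ± 0.58 SE, adjusted p = 0.421), *Itgav* (-0.27 ± 0.21 SE, adjusted p = 0.498) or *Itgb1* (0.00 ± 0.18 SE, adjusted p = 0.997). *Itgbl1* reached 44.8 CPM in DF-like cells of E14.5 on Smart-seq2 (11 of 49 cells) and 0.818 CPM at E16.5, and did not pass (4.38 ± 2.09 SE, adjusted p = 0.231).

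The effect of class differed between E14.5 and E16.5 for *Itga5* (-1.21 ± 0.30 SE, adjusted p = 0.00320 on the log2 scale, E16.5 less E14.5), *Lama2* (-1.37 ± 0.43 SE, adjusted p = 0.0430) and *Itgb1* (-0.85 ± 0.24 SE, adjusted p = 0.0198), where 3.65% of 14176 genes passed. That fit has 2 residual degrees of freedom, so its p-values lean on a spread shared among genes. *Itga5* stood at 268.004 against 274.9 CPM at E14.5 and at 364.98 against 1060.2 CPM at E16.5 on Smart-seq2, and at 36.2 against 60.9 and 28.4 against 73.2 CPM on 10x. Of the partners, *Vcam1*, *Vcl* and *Parva* rose (1.90 ± 0.20 SE, adjusted p = 2.30e-04, 1.27 ± 0.21 SE, adjusted p = 0.00334 and 1.16 ± 0.14 SE, adjusted p = 6.45e-04), and *Vtn*, *Nid2* and *Tgfb2* fell (-12.02 ± 1.71 SE, adjusted p = 0.00530, -2.19 ± 0.26 SE, adjusted p = 5.59e-04 and -2.17 ± 0.27 SE, adjusted p = 6.21e-04). By list, 3 rose and 3 fell of 15 tested adhesion adaptors, 1 rose and 4 fell of 12 tested basement membrane partners, 0 rose and 0 fell of 11 tested dystrophin complex and non-integrin laminin receptors, and 1 rose and 7 fell of 12 tested other integrin ligands, of which *Postn* is also a marker that named the LP-like class. *Itga8* and *Lamb1* passed in each of the 4 fits without 1 pool. *Itga6*, *Itga4*, *Itga1*, *Itga11* and *Lamc1* did not pass without the 10x sum of E14.5 (adjusted p 0.0533 to 0.108). *Itga1*, *Lama4* and *Lamc1* did not pass without the 10x sum of E16.5 (adjusted p 0.0854 to 0.0863). *Itga1* and *Itga11* did not pass without the Smart-seq2 sum of E14.5 (adjusted p 0.0538 to 0.0613), where *Lamc3* was removed by the filter on low counts. *Lama4* and *Lamc1* did not pass without the Smart-seq2 sum of E16.5 (adjusted p 0.0835 to 0.112), where *Lamc3* was removed by the filter on low counts. *Vtn* was removed by the filter on low counts without the 10x sum of E14.5 or the Smart-seq2 sum of E14.5 or the Smart-seq2 sum of E16.5. *Vtn* did not pass with DESeq2 (adjusted p = 0.781). *Lama4* and *Lamc1* did not pass on the 10x pools alone (adjusted p 0.275 to 0.654), where *Lamc3*, *Itga6*, *Itga4*, *Itga1*, *Itga11* and *Vtn* were removed by the filter on low counts.

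**Figure D4:**
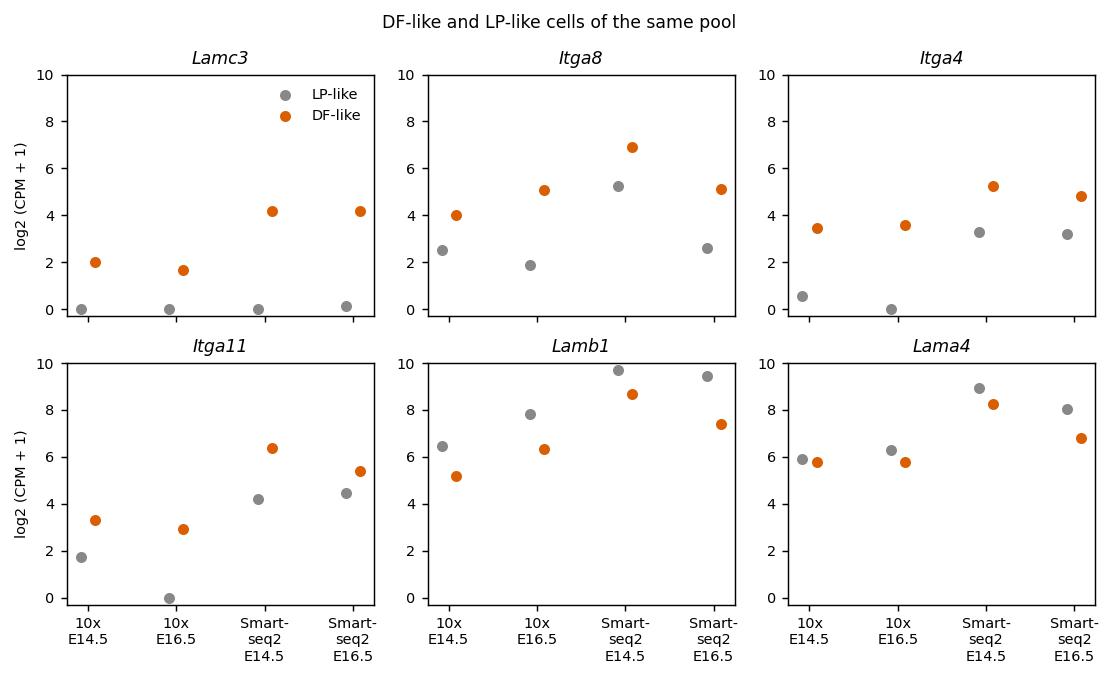
Level of 6 members in DF-like (orange) and LP-like cells (grey) of the same pool, as log2 (CPM + 1), with 1 point per sum and no error bar because each point is 1 pool. *Lamc3*, *Itga8*, *Itga4* and *Itga11* are higher and *Lamb1* and *Lama4* lower in DF-like cells in each of the 4 pools.

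LP-like cells of E14.5 and E16.5 were compared with EP-like cells of E12.5 with the platform as a term, since no pool holds both and class and stage cannot be told apart. Of 32 members tested 5 passed, all higher in LP-like cells, where 4.88% of 14040 genes passed as higher, 0.926% as lower and 5.8% in either direction, and the median log2 fold change was 1.31 for the members and 0.11 for all genes. They are the fibronectin and vitronectin receptor chains *Itga5* and *Itgb3* and the laminin chains *Lama4*, *Lamb1* and *Lamc1*. *Lama4* rose from 17.02 to 58.6 and 78.6 CPM on 10x and from 69.8 to 483.5 and 261.5 CPM on Smart-seq2 (2.63 ± 0.43 SE, adjusted p = 0.00393), both LP-like levels exceeding the EP-like level on each platform. *Lamb1* followed the same order, at 37.8, 88.3 and 224.9 CPM on 10x and 145.6, 832.2 and 694.3 CPM on Smart-seq2 (2.64 ± 0.47 SE, adjusted p = 0.00718). *Itga5* (chr15:103344286-103366763, minus strand) went from 68.6 to 274.9 and 1060.2 CPM on Smart-seq2, where all 87 LP-like cells of E16.5 held a count, and from 22.7 to 60.9 and 73.2 CPM on 10x (3.03 ± 0.72 SE, adjusted p = 0.0279). *Itgb3* and *Lamc1* rose by 4.67 ± 1.11 (SE, adjusted p = 0.0283) and 2.27 ± 0.44 (SE, adjusted p = 0.0107).

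*Itgb1*, *Itgav*, *Lama2* and *Itga7* did not pass in this comparison (1.23 ± 0.39 SE, adjusted p = 0.0906, 1.42 ± 0.41 SE, adjusted p = 0.0647, 1.48 ± 0.68 SE, adjusted p = 0.244 and 2.25 ± 1.02 SE, adjusted p = 0.238). Among the partners, 5 rose and 1 fell of 11 tested basement membrane partners, 6 rose and 1 fell of 12 tested other integrin ligands, 1 rose and 0 fell of 15 tested adhesion adaptors, and 0 rose and 0 fell of 10 tested dystrophin complex and non-integrin laminin receptors. *Postn*, which also helped to name the LP-like class, *Thbs1* and *Icam1* rose by 4.82 ± 0.61 (SE, adjusted p = 0.00126), 4.18 ± 0.76 (SE, adjusted p = 0.00747) and 3.93 ± 0.74 (SE, adjusted p = 0.00907), and *Npnt* and *Tgfb2* fell (-3.12 ± 0.79 SE, adjusted p = 0.0371 and -1.56 ± 0.39 SE, adjusted p = 0.0329). *Itgb3*, *Itga5*, *Lamb1* and *Lamc1* did not pass without the 10x sum of E12.5 (adjusted p 0.0568 to 0.0873). *Itga5* did not pass without the 10x sum of E14.5 (adjusted p = 0.0709). *Itgb3*, *Itga5* and *Lamc1* did not pass without the 10x sum of E16.5 (adjusted p 0.0540 to 0.0993). *Itgb3*, *Itga5*, *Lamb1*, *Lama4* and *Lamc1* did not pass without the Smart-seq2 sum of E12.5 (adjusted p 0.633 to 0.944). *Thbs1*, *Npnt* and *Tgfb2* did not pass without the 10x sum of E12.5 (adjusted p 0.0734 to 0.143). *Npnt* did not pass without the 10x sum of E14.5 (adjusted p = 0.0910). *Thbs1*, *Npnt* and *Tgfb2* did not pass without the 10x sum of E16.5 (adjusted p 0.0509 to 0.111). *Postn*, *Thbs1*, *Icam1*, *Npnt* and *Tgfb2* did not pass without the Smart-seq2 sum of E12.5 (adjusted p 0.327 to 0.973). *Tgfb2* did not pass at a cluster resolution of 1.2 (adjusted p = 0.0976). *Itga5*, *Lamc1*, *Icam1* and *Tgfb2* did not pass on the 10x pools alone (adjusted p 0.0733 to 0.436), where *Itgb3* and *Npnt* were removed by the filter on low counts. *Npnt* did not pass with Smart-seq2 sums split by sequencing batch (adjusted p = 0.292). The fit has 3 residual degrees of freedom, and without the Smart-seq2 pool of E12.5 none of the members passed.

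BA-like cells, marked by *Fabp4*, *Pparg* and *Adipoq*, shared only the 10x library of E16.5 with LP-like cells in sufficient number, so ratios are given with intervals that cover counting error only and with no test. The ratios were taken over the counts on genes that both platforms list, and the CPM over all counts of the class. Of 10 members with at least 10 UMIs over both classes 9 lay past a 2-fold ratio, 8 lower and 1 higher in BA-like cells, where 48.8% of 6911 genes did (25.7% lower and 23.1% higher), and the median log2 ratio was -1.97 for the members and -0.02 for all genes. *Itga5* was at 3.93 CPM (2 UMIs) in the BA-like and 73.2 CPM (27 UMIs) in the LP-like class, a ratio of 0.0522 (95% interval 0.00602 to 0.208). *Lama2* was at 0 CPM (0 UMIs) in the BA-like and 51.5 CPM (19 UMIs) in the LP-like class, and the 95% interval of its ratio runs from 0 to 0.151. *Itgav* and *Itgb5* had ratios of 0.136 (95% interval 0.0407 to 0.359) and 0.163 (95% interval 0.0297 to 0.592). The laminin chains *Lamb1*, *Lamc1* and *Lamb2* had ratios of 0.229 (95% interval 0.143 to 0.358), 0.282 (95% interval 0.154 to 0.497) and 0.353 (95% interval 0.140 to 0.827), and *Lama4*, at 43.3 CPM (22 UMIs) in the BA-like and 78.6 CPM (29 UMIs) in the LP-like class, one of 0.535 (95% interval 0.293 to 0.964). *Itgb1* was at 112.1 CPM (57 UMIs) in the BA-like and 233.01 CPM (86 UMIs) in the LP-like class (0.467, 95% interval 0.328 to 0.661). The exception was *Itga1*, at 33.4 CPM (17 UMIs) in the BA-like and 13.5 CPM (5 UMIs) in the LP-like class, a ratio of 2.40 (95% interval 0.849 to 8.31) whose interval includes 1. On Smart-seq2 the order of *Itga1* was the same, 43.1 CPM over 14 BA-like cells against 13.9 CPM over 87 LP-like cells of E16.5, and *Itga5* stood at 149.6 against 1060.2 CPM.

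**Figure D5:**
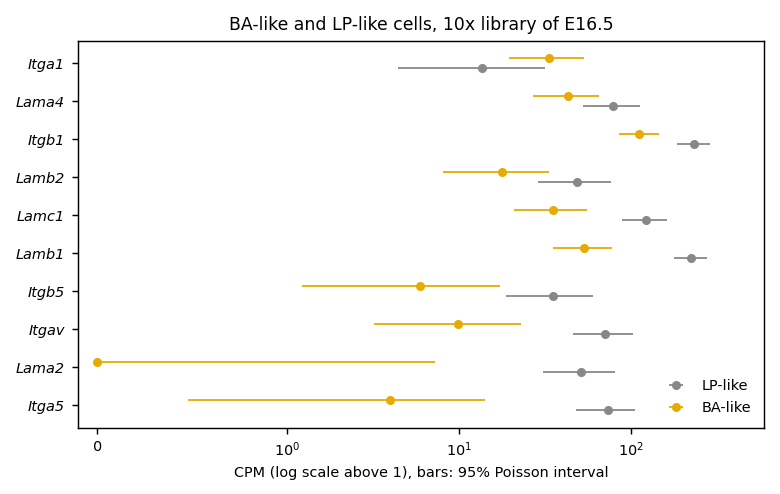
Level of the 10 members with at least 10 UMIs in BA-like (yellow) and LP-like cells (grey) of the 10x library of E16.5, in CPM on an axis that is logarithmic above 1, with exact 95% Poisson intervals as bars for counting error only. *Itga1* is the only one of the 10 whose BA-like point lies above its LP-like point, and the 2 intervals of *Itga1* overlap.

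The 2 Pdgfra-/Cd36+ libraries hold 24862787 and 32947290 reads, and their summed level of 9 brown adipocyte markers was 31153 and 28816 CPM against 108.8 and 129.2 CPM for 7 endothelial markers. These technical duplicates differ beyond counting noise (chi-square per degree of freedom 43.6 over 15766 genes), by a median of 0.20 and at most 0.83 (*Itga5*) on the log2 scale over the 15 members with at least 100 reads in both. *Lama4* stood at 136.3 and 143.9 CPM, *Lamb1* at 141.8 and 139.3, *Lamc1* at 75.5 and 83.4 and *Lamb2* at 48.7 and 50.5 CPM. *Itga1* stood at 122.8 and 102.9 CPM, *Itga5* at 29.2 and 51.9, *Itga6* at 18.1 and 16.997, *Itga7* at 15.002 and 13.1 and *Itgav* at 15.9 and 24.01 CPM. *Itgb1* was again the first per kb, at 21.5 and 26.99 CPM per kb, before *Lamb1* at 14.3 and 14.1 and *Lama4* at 11.3 and 11.9 CPM per kb. *Lama2* was low at 5.43 and 2.70 CPM, *Itgb8* had no read, and the members listed in the bulk table alone, *Itgb2* and *Itgax*, were at 0.0402 and 0 and 0.121 and 0 CPM. No comparison was made for these libraries, since the columns of the other sorted and cultured populations could not be matched to samples. In sorted bulk libraries, as in sums of cells, fewer cells that express a gene and less RNA per cell cannot be told apart.

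N-like cells, marked by *Tubb3* and *Elavl3*, were set against EP-like or LP-like cells of the same 4 pools. Of 31 members tested 10 passed, all lower, where 13.2% of 14350 genes passed as lower, 10.3% as higher and 23.5% in either direction, and the median log2 fold change was -2.60 for the members and -0.11 for all genes. *Itgb1* stood at 64.1 and 50.6 CPM on 10x and 94.4 and 63.4 CPM on Smart-seq2, against 158.8, 235.7, 329.03 and 538.7 CPM, with no overlap (-2.34 ± 0.37 SE, adjusted p = 0.00745). Larger fitted changes came from genes near 0 in N-like cells. *Itga5* was at 4.05 against 22.7, 0 against 60.9, 0.135 against 68.6 and 0.120 against 274.9 CPM (-8.53 ± 1.68 SE, adjusted p = 0.0142) and *Lama4* at 2.70 against 17.02, 7.22 against 58.6, 0.0541 against 69.8 and 0.898 against 483.5 CPM (-8.08 ± 1.54 SE, adjusted p = 0.0127), taking 10x E12.5, 10x E14.5, Smart-seq2 E12.5 and Smart-seq2 E14.5 in this order. *Lamb1* (-5.43 ± 1.02 SE, adjusted p = 0.0121), *Lamc1* (-3.42 ± 0.64 SE, adjusted p = 0.0121), *Lama2* (-8.56 ± 2.11 SE, adjusted p = 0.0290), *Itgb5* (-7.63 ± 1.51 SE, adjusted p = 0.0145), *Itga11* (-5.91 ± 1.22 SE, adjusted p = 0.0167), *Itga9* (-3.67 ± 0.94 SE, adjusted p = 0.0319) and *Itgav* (-2.92 ± 0.65 SE, adjusted p = 0.0211) were lower in all 4 pools as well, and *Itga7* did not pass (-1.48 ± 1.10 SE, adjusted p = 0.378).

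Of the partners in neurons, 1 rose and 6 fell of 12 tested basement membrane partners, 0 rose and 8 fell of 10 tested other integrin ligands, 0 rose and 8 fell of 15 tested adhesion adaptors, and 0 rose and 1 fell of 10 tested dystrophin complex and non-integrin laminin receptors. *Agrn*, which clusters receptors at the neuromuscular junction, was the one that rose (1.22 ± 0.30 SE, adjusted p = 0.0288), and *Nid2*, *Nid1* and *Hspg2* changed by -12.01 ± 2.40 (SE, adjusted p = 0.01499), -9.63 ± 2.05 (SE, adjusted p = 0.0181) and -8.57 ± 1.76 (SE, adjusted p = 0.0161). *Itgb1* passed in each of the 4 fits without 1 pool. *Lama2*, *Itga5*, *Itgb5*, *Itga11*, *Lamb1*, *Itga9*, *Lamc1* and *Itgav* did not pass without the 10x sum of E14.5 (adjusted p 0.0558 to 0.0992). *Lama2*, *Itga5*, *Lama4*, *Lamb1* and *Itga9* did not pass without the Smart-seq2 sum of E12.5 (adjusted p 0.0553 to 0.117), where *Itga11* was removed by the filter on low counts. *Lama2*, *Lama4*, *Itgb5* and *Itga9* did not pass without the Smart-seq2 sum of E14.5 (adjusted p 0.0589 to 0.109), where *Itga11* was removed by the filter on low counts. *Nid2*, *Nid1* and *Hspg2* did not pass without the 10x sum of E14.5 (adjusted p 0.0609 to 0.0723). *Agrn*, *Nid2* and *Nid1* did not pass without the Smart-seq2 sum of E12.5 (adjusted p 0.0632 to 0.0762). *Agrn*, *Nid1* and *Hspg2* did not pass without the Smart-seq2 sum of E14.5 (adjusted p 0.0566 to 0.0955). *Agrn* did not pass on the 10x pools alone (adjusted p = 0.273), where *Lama2*, *Itga11* and *Itga9* were removed by the filter on low counts. *Agrn*, *Lama2*, *Itga5*, *Lama4*, *Itgb5*, *Lamb1*, *Itga9*, *Nid2*, *Nid1*, *Hspg2* and *Itgav* did not pass with Smart-seq2 sums split by sequencing batch (adjusted p 0.0693 to 0.139), where *Itga11* was removed by the filter on low counts.

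The NP-like and PE-like classes entered no test, and their levels are given as measured. NP-like cells, marked by *Sox2* and *Hes5*, held the highest level of *Itgb8*, a β partner of αv that activates TGFβ, at 84.1 and 84.6 CPM on 10x and 58.1 and 81.3 CPM on Smart-seq2 at E12.5 and E14.5, against at most 21.6 CPM in any sum of N-like cells. *Lama1*, the α chain of the first laminin of the embryo, stood at 40.8 and 112.9 CPM there on Smart-seq2, against 5.19 and 8.08 CPM in N-like cells. On 10x it had 4 and 1 UMIs in the NP-like sums, too few to set it apart from the 13 UMIs (8.77 CPM) of N-like cells at E12.5. The E14.5 sums hold 26 and 14 cells. PE-like cells, marked by *Rgs5* and *Kcnj8*, held the highest *Itga1*, at 193.7 and 256.9 CPM on 10x (13 and 30 cells) and 514.6 CPM on Smart-seq2 (15 cells), where the next highest sum was BA-like on 10x with 33.4 CPM and DF-like of E14.5 on Smart-seq2 with 46.1 CPM. *Itga7* in PE-like cells, at 67.4, 55.05 and 467.1 CPM, was no lower than in the EM-like cells of the same pools (17.9, 35.8 and 379.4 CPM). *Itgb1* stood at 463.3, 440.4 and 1306 CPM in these cells, the highest of the 9 classes in each of the 3 pools. The 7 endothelial markers summed to 50.5 to 94.5 CPM and the early muscle markers to 18.3 to 454.4 CPM in PE-like cells, and their part in these levels was not tested.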

How the data were processed

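Single-cell tables hold UMI counts (10x) and expected counts (Smart-seq2), and the bulk table holds read counts, all deposited by the authors. Per the labels and the study's methods, 10x reads were counted with Cell Ranger on the mouse GRCm38 reference, and the Smart-seq2 counts were estimated with kallisto 0.44.0 on the transcriptome and summed per gene, without unique identifiers, so that reads are not independent molecules. Cells without YFP, 10x cells with more than 15000 counts and Smart-seq2 cells with fewer than 4000 genes had been removed before deposit. The aligner of the bulk libraries is not given in the sources used here, and the submitters' processing notes name mm10 and STAR without a role. Expected counts were rounded. Antisense genes cannot be told apart where counting ignored strand, and strand does not separate overlapping genes of the same strand. For kallisto the reads shared between related transcripts were split by a model.

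The cells of both platforms were filtered on mitochondrial share (8%), clustered with Seurat 5.3.0 (2000 variable genes without members and partners, 30 components, resolution 0.8) and named by marker score. Doublets were called with the scanpy 1.11.5 version of Scrublet (8, 10 and 8 cells of the 3 10x libraries) and kept. Counts were summed per class and pool of at least 20 cells, and tested with edgeR 4.0.16 (TMM, filterByExpr, quasi-likelihood F-test) on 15147 genes shared by both platforms, with the pool as a block where a pool holds both classes and the platform as a term otherwise. Adjusted p-values are Benjamini-Hochberg over all genes tested, with a threshold of 0.05. Alternatives were DESeq2 1.42.0, other filters, resolutions and doublet handling, a split by sequencing batch, 10x alone, and each pool left out in turn. The steps were tested on simulated data with known changes. Of 50 changes of log2 size 1, 0 were recovered in LP-like against EP-like cells and 0 in N-like cells. The recovery was 3 in EM-like cells by stage, 7 in EM-like cells against the progenitors, 13 in DF-like and 16 in LM-like cells. At log2 size 2 it was 9, 10, 22, 26, 33 and 36 of 50 in this order. A member that did not pass can thus still differ by such a size. Over all sizes, 76, 65, 107, 117, 130 and 139 changed genes were called with the right sign, in the same order. Beside them 10, 11, 6, 7, 26 and 20 unchanged genes were called. That share of false calls was above the 0.05 of the threshold in this simulation, most so in DF-like cells. The changed genes had mean counts above 50, so recovery at lower counts was not measured. The members, partner lists and tests were chosen with earlier results of these data known. In each comparison the genes named are up to 8 members per direction with the largest change among those that passed, then *Itga7*, *Itgb1*, *Itgav*, *Lama2*, *Lama4*, *Lamb1* and *Lamc1* in any case, and up to 3 partners per direction that passed with the largest change, and any other gene given with a value was chosen after its values were seen. Results of 1 member and 1 partner gene are not reported here, though both stay in the counts. Intervals cover counting error only. Of 18 bulk columns 16 were not used, because their names lost the plus or minus sign and match a pair of samples each. The genome positions are from GENCODE vM21. Analyses used R 4.3.3 and Python 3.11.15.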

Additional observations from a re-analysis of the deposited data

Results flagged for a closer look

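A pool stood apart from the rest of its comparison in 3 of 40 sets of 4 to 6 pools, where chance gives about 1 in 20. The within-pool log2 ratio of *Itga7* between LM-like and EM-like cells was 2.08 in 10x at E12.5, from 1 UMI in each class, above the other pools, which were all below 0. For *Parva* between DF-like and LP-like cells it was 0.96 in 10x at E16.5. For *Itgav* between N-like cells and mesenchymal progenitors it was -4.95 in Smart-seq2 at E14.5, below the other 3 pools, from 2.82 against 86.8 CPM.

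Effects of class that differed between stages, by the interaction term, were as follows on the log2 scale. The fits have 2 residual degrees of freedom for DF-like against LP-like cells and 3 for EM-like cells against the progenitors. Between DF-like and LP-like cells, from E14.5 to E16.5, the difference was -1.21 for *Itga5*, -0.85 for *Itgb1* and -1.37 for *Lama2*. Between EM-like cells and mesenchymal progenitors, from E12.5 to E16.5, it was 6.68 for *Itga8*, 4.77 for *Itga7*, 4.19 for *Itga6* and 3.94 for *Lama5*, and -5.53 for *Itga11*, -3.67 for *Itga5*, -3.64 for *Itga4*, -2.19 for *Lama2* and -1.47 for *Lamb1*. The effect between N-like cells and the progenitors differed between platforms for *Lama4* (-6.33, Smart-seq2 less 10x) and *Lamb2* (-12.01), where 42 of 14350 genes did.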

How the results depend on the processing

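Between stages no library can be exchanged, so a difference by stage rests on 1 10x library and 1 set of Smart-seq2 plates each. Depth limits the 10x library of E16.5 most, with a median of 1607.5 UMIs per cell. A member with 0 UMIs in a class there was not detected, which gives only an upper bound on its level.

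The count of members that passed moved by more than 1.5 times under these alternatives. With 10x alone it was 1 in LM-like against EM-like cells, 4 in DF-like against LP-like cells, 6 in EM-like cells against mesenchymal progenitors and 2 in LP-like against EP-like cells. A resolution of 1.2 gave 8 in EM-like cells against the progenitors. Splitting Smart-seq2 sums by sequencing batch gave 2 in N-like cells and 4 in EM-like cells by stage, and DESeq2 gave 10 in LP-like against EP-like cells. With each pool left out in turn, the count ranged from 5 to 10 in LM-like against EM-like cells, 4 to 8 in DF-like against LP-like cells, 6 to 13 in EM-like cells against the progenitors, 2 to 12 in N-like cells, 0 to 8 in LP-like against EP-like cells and 2 to 10 in EM-like cells by stage, where fewer sums enter each fit. The other 61 recounts and 18 recounts without 1 pool stayed within 1.5 times.

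*Itgb1* between DF-like and LP-like cells, which did not pass, changed sign to -0.00247 when members were allowed among the variable genes and to -0.0109 on 10x alone, and ranged from -0.116 (no 10x pool of E14.5) to 0.173 with 1 pool left out. In EM-like cells by stage, neither *Itgav* nor *Lama2* passed. With 1 pool left out *Itgav* ranged from -1.11 to 1.37 and *Lama2* from -0.407 to 0.42, both signs turning without Smart-seq2 at E16.5, and *Lama2* stood at 0.0587 with Smart-seq2 split by batch. The cause was not tested. Of the other single-gene values, 1076 kept their direction and side of the threshold, 62 lost and 14 gained a call, and without 1 pool 4 gained one, the lost calls being given with each comparison. Each member that passed kept its direction in each fit without 1 pool in which it was tested.

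Classes were paired by pool, as a block of the fit, in 4 of the 6 comparisons. No paired analysis was possible by replicate number because the pools carry none. LP-like against EP-like cells with doublets removed, EM-like cells by stage on 10x alone (no residual degrees of freedom) and comparisons of bulk populations with their alternatives were not run.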
